A study of Mus musculus with 50 samples.

Results

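The Cyp4a genes encode cytochrome P450 enzymes that hydroxylate fatty acids at or next to their methyl end, and 6 of them, Cyp4a10, Cyp4a14, Cyp4a12a, Cyp4a12b, Cyp4a31 and Cyp4a32, are described here. They were chosen by name, and all 6 were found among the 12185 genes of the expression table. The GENCODE M21 annotation places 11 Cyp4a genes and pseudogenes on chromosome 4, of which the table holds these 6 and no other. The 50 libraries are liver RNA from male mice of a cross in which A/J-derived parts of chromosomes 4 and 6 segregate against C57BL/6J. In the paper's design each mouse carried 1 copy of each of these chromosomes wholly from C57BL/6J and 1 recombinant copy, and the rest of the genome came from C57BL/6J. The deposited labels call the mice adult F2 animals, whereas the paper calls them N2 offspring, killed at 5 weeks of age after an overnight fast. All libraries form 1 group without a treatment or an untreated control, and genotypes were not used, so which allele a mouse carried at the Cyp4a genes is not part of any value below.

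The library titles hold a pair of runs of library numbers. The first set, numbered 1 to 30, has 28 libraries, and the second, numbered 31 to 59, has 22. The labels do not say what separates them. Only 48 animal numbers stand on the 50 libraries, as the libraries numbered 8 and 10 share a number and so do those numbered 22 and 55. Those numbered 8 and 10 held different values, with Cyp4a32 at 342 and 70, Cyp4a14 at 2532 and 5016 and Cyp4a31 at 38 and 143, and whether they come from the same mouse was not tested. The paper counts fewer mice than there are libraries. Between 11965594 and 29976557 reads were counted per library, with a median of 13620584. On the normalised scale 3 reads corresponded to a value of 0.0951 to 0.259.

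The library numbered 24 stood apart in genes that differ between the sexes. Of 19 male-biased liver genes listed from general knowledge, other than Cyp4a genes, 13 were lowest in this library, and of 20 female-biased genes, with Cyp4a10 and Cyp4a14 left out of the count as well, 8 were highest. The share of all genes that were lowest or highest in this library was not counted, so these counts have no background beside them. Its normalised values summed to 886171, the lowest sum of the 50 libraries, where the highest was 1120647. Cyp2b9, a female-biased P450, was at 193 in this library against 0 to 56.2 in the other 49. It also held the lowest values of Cyp4a12a and Cyp4a12b, whereas its values of Cyp4a14, Cyp4a10, Cyp4a31 and Cyp4a32 lay within the range of the others. The main list counts of Cyp4a12a and Cyp4a12b are given with and without it, and calls of single genes are with it unless said otherwise.

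Hydroxylation at the methyl end, called omega-hydroxylation, opens a side route of fatty acid breakdown in the liver. Alcohol and aldehyde dehydrogenases turn the product into a dicarboxylic acid, which peroxisomes then shorten. Cyp4a10 and Cyp4a14 are textbook targets of PPAR-alpha, the nuclear receptor that fasting and fibrate drugs activate in hepatocytes, and Cyp4a14 is known to be higher in livers of females. Cyp4a12a and Cyp4a12b are known as male-biased genes that depend on androgen and on the pulses of growth hormone, and Cyp4a12a makes the vasoactive lipid 20-HETE. Little is commonly taught about Cyp4a31 and Cyp4a32.

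The 6 genes lay within 323 kb of chromosome 4 in GRCm38, from 115299046 to 115621602. Cyp4a12a (ENSMUSG00000066071) came first, at 115299046 to 115332815, followed by Cyp4a12b (ENSMUSG00000078597) at 115411624 to 115439034. Cyp4a14 (ENSMUSG00000028715), at 115486200 to 115496142, was the only one of the 6 on the minus strand. Next to it lay Cyp4a10 (ENSMUSG00000066072) at 115518264 to 115533649, Cyp4a31 (ENSMUSG00000028712) at 115563649 to 115579015 and Cyp4a32 (ENSMUSG00000063929) at 115600969 to 115621602. Their coding sequences ran from 1521 to 1527 bases, and each held 1 copy of the haem-binding signature that marks the P450 family. The 60 coding bases around that signature are shown for Cyp4a10, Cyp4a14 and Cyp4a12a, to let a reader see how alike these enzymes are at their active centre. They are read 5′ to 3′ from the GENCODE M21 transcripts, and capitals mark bases that differ from Cyp4a10. They are coding bases 1330 to 1389 of Cyp4a10, 1324 to 1383 of Cyp4a14 and 1327 to 1386 of Cyp4a12a.
Cyp4a10: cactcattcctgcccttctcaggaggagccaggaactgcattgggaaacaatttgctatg
Cyp4a14: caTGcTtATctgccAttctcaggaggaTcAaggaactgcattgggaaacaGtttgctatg
Cyp4a12a: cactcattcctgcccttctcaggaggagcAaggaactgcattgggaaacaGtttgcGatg
Cyp4a14 differed from Cyp4a10 at 9 of these 60 bases and Cyp4a12a at 3, Cyp4a12b read as Cyp4a12a, and Cyp4a31 and Cyp4a32 read as Cyp4a10.

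Sequence matters for the measurement as well, since a read that fits several of these genes cannot be given to one of them. Over the whole coding sequence Cyp4a12a and Cyp4a12b were 98.5% identical, with 23 differing bases. Cyp4a10 was 97.2% identical to Cyp4a32 and 96.6% to Cyp4a31, and Cyp4a14 was between 75.7% and 76.8% identical to the other 5 genes. Of the 31-base stretches in the transcripts of each gene, the share found in no other gene of the annotation was 98% for Cyp4a14, 68% for Cyp4a31 and 55.1% for Cyp4a10. It was 37.8% for Cyp4a12a, 37.2% for Cyp4a32 and 37.1% for Cyp4a12b. Of 100-base stretches the own share was larger, at 64.2% for Cyp4a12a, 81.8% for Cyp4a32 and 63.8% for Cyp4a12b. The stretches below are coding windows in which the near-identical genes can be told apart. The first 3 start at coding base 202 and run for 60 bases, with capitals for bases that differ from Cyp4a10, and the last pair are coding bases 625 to 684, with capitals for bases that differ from Cyp4a12a.
Cyp4a10: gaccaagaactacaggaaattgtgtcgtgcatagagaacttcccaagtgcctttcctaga
Cyp4a31: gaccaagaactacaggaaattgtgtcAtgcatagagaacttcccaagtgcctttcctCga
Cyp4a32: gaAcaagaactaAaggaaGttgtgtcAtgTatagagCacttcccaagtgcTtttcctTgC
Cyp4a12a: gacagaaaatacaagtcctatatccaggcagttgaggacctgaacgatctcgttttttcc
Cyp4a12b: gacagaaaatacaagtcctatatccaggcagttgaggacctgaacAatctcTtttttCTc
Cyp4a31 differed from Cyp4a10 at 2 bases of the window and Cyp4a32 at 9, and Cyp4a12b differed from Cyp4a12a at 4.

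Cyp4a14 and Cyp4a10 were among the genes with the highest values in these livers. The ranks given here are of values not corrected for gene length. The Cyp4a14 value was 4764 ± 1235 (mean and SD, n = 50), with 2402 as the lowest, 4804 as the median and 7669 as the highest library, and its mean ranked 24 among the 12185 genes. Cyp4a10 was at 3308 ± 699 (SD, n = 50), from 1820 over a median of 3299 to 4562, and ranked 43. Together these 2 genes took 86.3% to 97.8% of the reads on the 6 genes, with a median of 94.4%, and the 6 genes took 0.518% to 1.28% of all counted reads. The values rested on 27242 reads or more in each library, and counting error made up 0.0212% of the variance between libraries for Cyp4a14 and 0.0459% for Cyp4a10. Their coefficients of variation, 25.9% and 21.1%, exceeded those of 90% and 80% of the 200 genes of most similar mean.

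The other 4 genes were far lower and spread more widely. Cyp4a12a was at 114.3 ± 48.05 (SD, n = 50), with 11.7, 110 and 216.3 as the lowest, median and highest library, and the second lowest library was at 32.5. Cyp4a12b was at 65.8 ± 31.5, with 6.69, 58 and 168, and its second lowest library at 19.8. For both genes the lowest library was the one numbered 24. Cyp4a31 was at 83.1 ± 35.9, from 31.8 over 76.8 to 155. Coefficients of variation were 42.1% for Cyp4a12a, 47.8% for Cyp4a12b and 43.2% for Cyp4a31, above those of 99%, 97% and 97.5% of genes of similar mean. Counting error made up at most 0.451% of the variance of any of the 6 genes, where PCR copies of a molecule are counted as if they were independent reads.

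Cyp4a32 fell into a lower and an upper range with no library between them. In 29 libraries its value lay between 33.9 and 105, with a median of 58.4, and in 21 libraries between 286 and 639, with a median of 424. The gap from the highest library of the lower range to the lowest of the upper one was 1.44 on the log2 scale, a 2.73-fold step, where the next widest gap between neighbouring libraries was 0.35. Both ranges held libraries of both sets, 16 of the first and 13 of the second set in the lower range and 12 and 9 in the upper. They also overlapped over most of the animal numbers. The coefficient of variation of 89.5% exceeded that of each of 200 genes of similar mean, and the mean over all libraries, 214.7 ± 192.2 (SD, n = 50), lies in the gap, where no mouse was. The ranges were seen in the values and are not groups of the study, so they were not tested against each other as groups. The slopes of other genes on Cyp4a32 given below nevertheless mainly follow the step between the ranges.

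**Figure D1:**
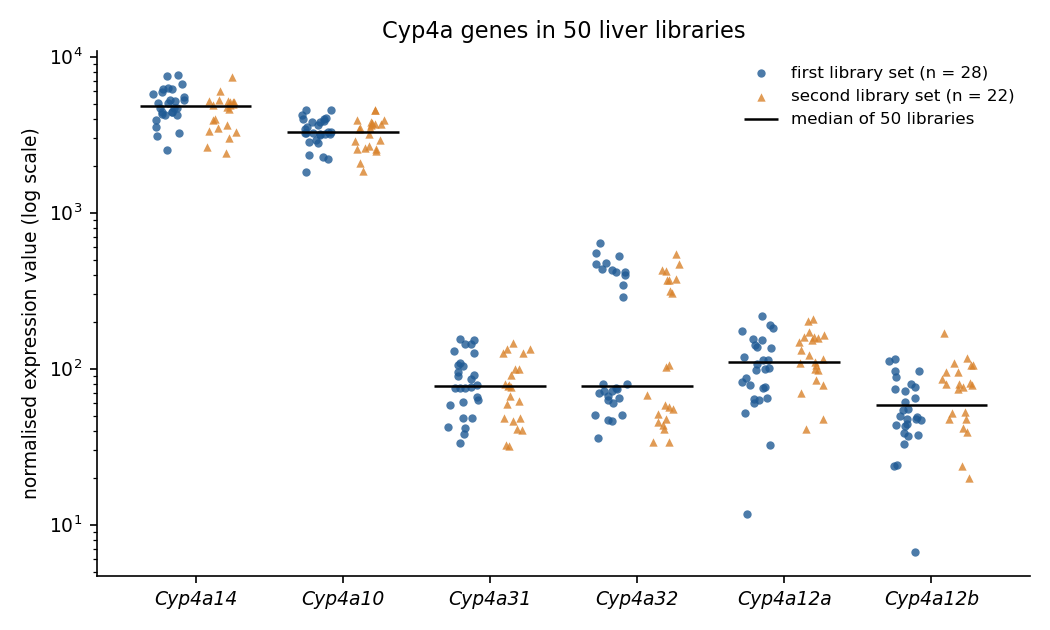
Normalised expression value on a log axis for each Cyp4a gene, 1 point per library, with circles for the first and triangles for the second library set and a line at the median of 50 libraries. Cyp4a32 lies in a lower range up to 105 and an upper range from 286, and 1 library lies below the rest for Cyp4a12a (11.7) and Cyp4a12b (6.69).

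Levels of different genes were compared per kb of exon. On that scale Cyp4a14 was at 1832 ± 475 and Cyp4a10 at 1569 ± 332 (SD, n = 50), with Cyp4a12a at 47.2 ± 19.8, Cyp4a31 at 33.1 ± 14.3 and Cyp4a12b at 27.5 ± 13.1. The mean of Cyp4a32, 139.8 ± 125.2, pools both of its ranges and fixes no place in this order. Cyp4a32 was below Cyp4a10 in 50 of 50 libraries and above Cyp4a12a in 34. Cyp4a14 was above Cyp4a10 in 44 of 50 libraries, by 263 ± 262 (mean difference and SD). The mean differences of the remaining neighbours, Cyp4a32 over Cyp4a12a, Cyp4a12a over Cyp4a31 and Cyp4a31 over Cyp4a12b, were 92.6, 14.1 and 5.63, each smaller than its SD over libraries (25.1 and 20.5 for the last pair). Cyp4a12a was above Cyp4a31 in 36 and Cyp4a31 above Cyp4a12b in 28 of 50 libraries. Per kb of own sequence, taken as the share of 100-base stretches found in no other gene (87.8% for Cyp4a10 and 100% for Cyp4a14), the order of the top pair was lost, with Cyp4a14 at 1832 and Cyp4a10 at 1785 and Cyp4a14 the higher of the pair in 23 of 50 libraries. On that length Cyp4a12a was at 73.5, and the last pair changed order, with Cyp4a12b at 43.1 and Cyp4a31 at 35.7, Cyp4a31 being the higher in 21 of 50 libraries.

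Each Cyp4a gene was also compared between the library sets. No member passed the test between the sets in limma, edgeR or DESeq2 (0 of 6, and 0 of 6 at an unadjusted p under 0.05 in limma), where 1575 of 11436 genes, 13.8%, did pass in limma. So 0 of 6 members stand beside that share and nothing particular to the family is read from it. The smallest adjusted p was 0.188, for Cyp4a12b, at 57.7 ± 26.8 (SD, n = 28) in the first set and 76.1 ± 34.5 (n = 22) in the second. In limma it was 1.33-fold higher in the second set, at an unadjusted p of 0.0578. The largest was 0.804, for Cyp4a10, at 3343 ± 677 and 3264 ± 740. Over 9 alternative settings adjusted p ran from 0.158 to 0.856 for the 6 genes.

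Animal number was related to the abundant pair. Per 100 animal numbers Cyp4a14 rose by 0.48 log2 units (0.09 as standard error, adjusted p = 0.000238 in limma) and Cyp4a10 by 0.36 (0.08, adjusted p = 0.00107). These are 1.39-fold and 1.28-fold higher values per 100 animal numbers. Across all genes tested 1627 of 11436, 14.2%, were called, 7.48% rising and 6.75% falling, so 2 of 6 members stand beside that share and nothing particular to the family is read from it. Cyp4a31 had a slope of 0.37 (adjusted p = 0.132), Cyp4a32 of 0.46 (0.459), Cyp4a12a of -0.43 (0.141) and Cyp4a12b of -0.47 (0.115), none past the threshold in limma. What animal number stands for is not in the labels.

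As a correlation, the relation with animal number was r = 0.62 for Cyp4a14 (Pearson, permutation p = 3e-05, n = 50; Spearman rho = 0.72, permutation p = 1e-05, the smallest that 100000 permutations can give). For Cyp4a10 it was r = 0.56 (permutation p = 5e-05) and rho = 0.56 (permutation p = 0.00011). Over the 5 genes other than Cyp4a32, the Benjamini-Hochberg adjusted p of r was 0.00012 for both. The other 3 genes were near the threshold, with an adjusted permutation p of r of 0.0454 each, at r = 0.29 for Cyp4a31 (rho = 0.23, permutation p = 0.116), -0.28 for Cyp4a12a (rho = -0.34, permutation p = 0.0164) and -0.30 for Cyp4a12b (rho = -0.38, permutation p = 0.00644). Within the first and second set these were 0.27 and 0.28, -0.20 and -0.37, and -0.25 and -0.28, and without the 2 farthest libraries 0.27, -0.33 and -0.32. The unadjusted p was 0.044, 0.0454 and 0.0342 here and 0.0329, 0.0366 and 0.0266 in limma, so these 3 relations pass or not by the number of genes adjusted over, 5 or 11436. Without the 2 libraries farthest from the median animal number r was 0.58 for Cyp4a14 and 0.53 for Cyp4a10. Within the first and second library set r was 0.64 and 0.56 for Cyp4a14 and 0.61 and 0.50 for Cyp4a10. Whether the slope differed between the sets was tested with an interaction term, which called 0 of 6 members (0 of 6 at an unadjusted p under 0.05, limma) and 5 of 11436 genes, 0.0437%. Libraries that share an animal number may not be independent, and both calls held without them.

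**Figure D2:**
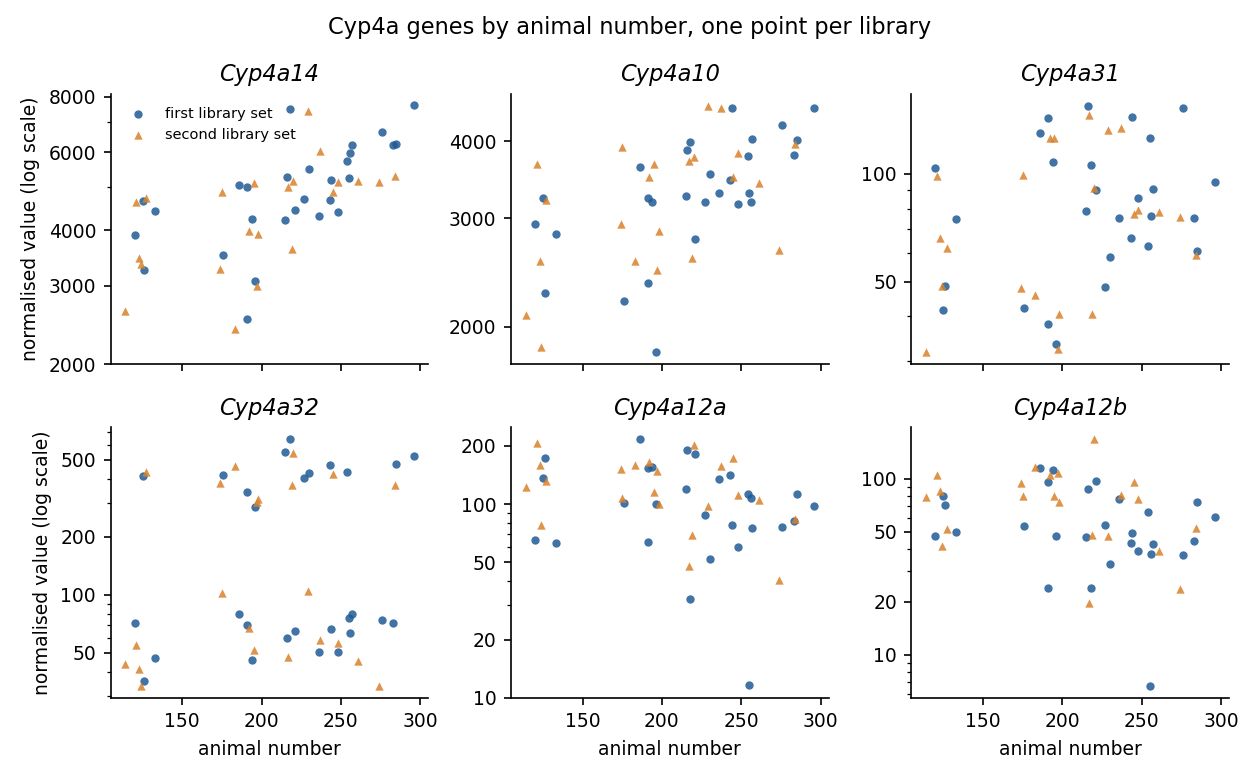
Normalised value on a log axis against animal number, 1 panel per Cyp4a gene and 1 point per library, with circles for the first and triangles for the second library set. Cyp4a14 and Cyp4a10 rise with animal number in both sets, and the Cyp4a32 panel shows both ranges across the numbers.

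Among themselves the genes varied in 2 blocks, Cyp4a14 with Cyp4a10, Cyp4a31 and Cyp4a32 on one side and Cyp4a12a with Cyp4a12b on the other. Cyp4a32 is placed by its relations inside each of its ranges only. In all, 20 relations were computed, 10 pairs over all libraries and the 5 pairs with Cyp4a32 inside each of its ranges, and 11 passed at an adjusted permutation p under 0.05. Cyp4a14 and Cyp4a10 had r = 0.85 and rho = 0.86 (n = 50, permutation p = 1e-05 for each, the smallest possible, adjusted 4e-05 and 0.0001), although they share none of their 31-base stretches. Within the library sets r was 0.87 and 0.83, without the 2 libraries farthest from the median it was 0.85, and after library set and animal number were fitted it was 0.78. Cyp4a31 followed Cyp4a10 (r = 0.72, rho = 0.66, adjusted p = 4e-05 and 0.0001; sets 0.65 and 0.79; without the 2 farthest 0.70). It also followed Cyp4a14 (r = 0.65, rho = 0.57, adjusted p = 4e-05 and 0.0002; sets 0.54 and 0.77; without the 2 farthest 0.62). Cyp4a31 shares 22% of its 31-base stretches (4% of 100-base stretches) with Cyp4a10 and 0.0788% with Cyp4a14, and the part of shared sequence in the first relation was not tested.

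Cyp4a12a and Cyp4a12b rose and fell together, with r = 0.91 and rho = 0.87 (n = 50, permutation p = 1e-05 for each, adjusted 4e-05 and 0.0001). The value was 0.92 in the first and 0.91 in the second set, 0.87 without the 2 libraries farthest from the median and 0.88 without the library numbered 24. These genes share 62.2% and 62.9% of their 31-base stretches (35.8% and 36.2% of 100-base stretches), so reads that change place between them cannot be told apart from messages that vary together. Between the blocks relations were weak. Cyp4a14 had r = -0.34 with Cyp4a12b (rho = -0.37, permutation p = 0.0147 and 0.00781, adjusted 0.0267 and 0.0142; sets -0.30 and -0.31; without the 2 farthest -0.28) and r = -0.30 with Cyp4a12a (rho = -0.32, adjusted 0.0581 and 0.041). After library set and animal number were fitted these were -0.19 (adjusted p = 0.334) and -0.15 (adjusted p = 0.496). Cyp4a10 had r = -0.06 with each of Cyp4a12a and Cyp4a12b (rho = -0.09, adjusted p of r = 0.764).

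No correlation over all libraries is given for Cyp4a32, whose libraries form separate clusters. In its lower range (n = 29) Cyp4a32 had r = 0.70 with Cyp4a10, 0.61 with Cyp4a14 and 0.59 with Cyp4a31 (rho = 0.65, 0.56 and 0.59; adjusted permutation p of r = 0.00013, 0.00126 and 0.00147). In its upper range (n = 21) the values were 0.69, 0.63 and 0.88 (rho = 0.68, 0.60 and 0.87; adjusted p of r = 0.00145, 0.0049 and 4e-05). So Cyp4a32 rose with its neighbours inside each range, and most closely with Cyp4a31 in the upper one, although a difference between the ranges was not tested. From one range to the other Cyp4a31 went the opposite way. Its median was 98.9 in the libraries of the lower Cyp4a32 range and 58.6 in those of the upper range, which was not tested. With Cyp4a12a and Cyp4a12b it had r = -0.06 and -0.04 in the lower and -0.19 and -0.21 in the upper range, none past the threshold. Without the 2 libraries farthest from the median the values with Cyp4a10, Cyp4a14 and Cyp4a31 were 0.67, 0.58 and 0.62 in the lower and 0.56, 0.50 and 0.82 in the upper range. In the upper range the relation with Cyp4a14 was 0.77 in the first and 0.25 in the second library set, and 0.46 (adjusted p = 0.0746) once set and animal number were fitted. Cyp4a32 shares 49.2% of its 31-base stretches with Cyp4a10 and 37.9% with Cyp4a31, and 12.5% and 8.79% of its 100-base stretches. Cyp4a10 was at 1820 or more in every library, where Cyp4a32 lay between 33.9 and 105 in its lower range. Reads that change place between these genes cannot be told apart from messages that vary together.

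**Figure D3:**
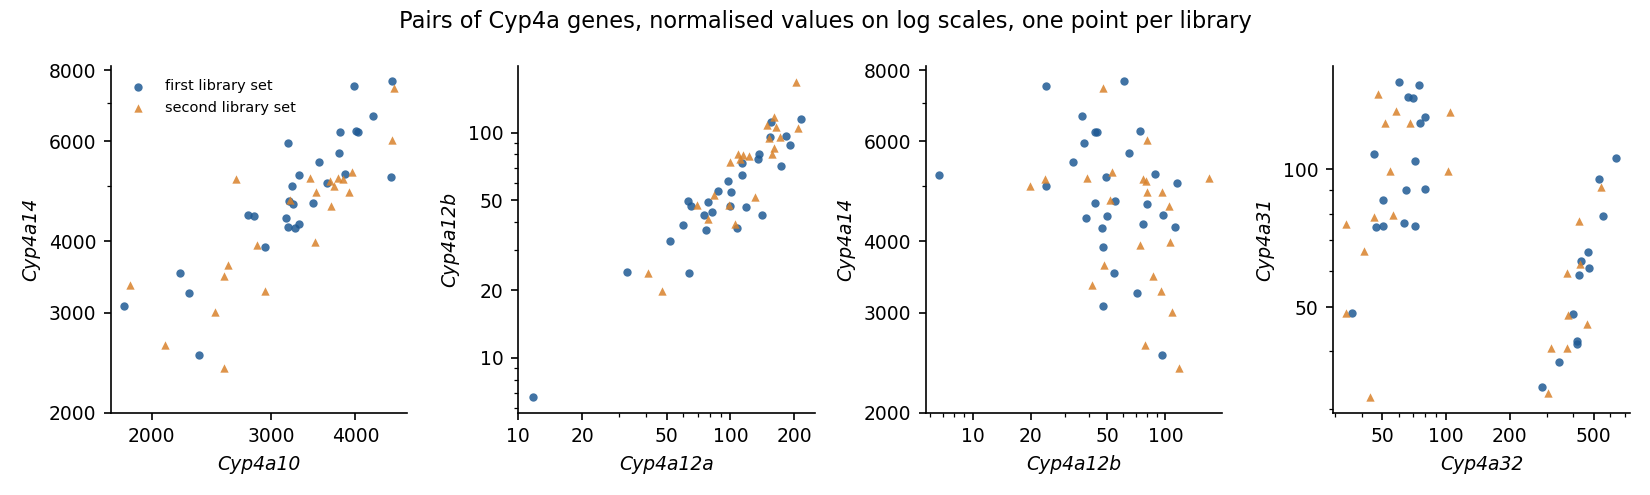
Normalised values of 4 pairs of Cyp4a genes on log axes, 1 point per library, with circles for the first and triangles for the second library set. Cyp4a10 with Cyp4a14 and Cyp4a12a with Cyp4a12b form narrow bands, Cyp4a12b with Cyp4a14 a loose falling cloud, and Cyp4a32 with Cyp4a31 a pair of separate clouds that each rise. The cloud of the upper Cyp4a32 range has the lower median of Cyp4a31.

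To see which genes of the liver varied with each Cyp4a gene, every gene was fitted on the log2 value of 1 member at a time. A slope below is the log2 change of a gene per 1 log2 unit of that member, and counts of listed genes are to be read beside the share of all genes called with it. Counts at an unadjusted p under 0.05 are to be read likewise. Of 10132 genes outside chromosomes 4 and 6, 2691 were at such a p with Cyp4a14, 1892 with Cyp4a10 and 1311 with Cyp4a31 (limma without covariates). With Cyp4a14, 1403 of 11435 genes were called (12.3%), 726 rising (6.35%) and 677 falling (5.92%). PPAR-alpha targets rose with it in 18 of 34 genes and fell in 0, with a median slope of 0.23 against -0.0026 for all genes. Ehhadh, the peroxisomal bifunctional enzyme of fatty acid breakdown, had a slope of 0.76 (standard error 0.09, adjusted p = 2.99e-07), and Cidec, a lipid droplet protein, of 1.85 (0.24, adjusted p = 4.21e-07). Acadl, a mitochondrial acyl-CoA dehydrogenase, had a slope of 0.29 (0.05, adjusted p = 4.37e-05) and Vnn1, a pantetheinase, of 0.73 (0.12, adjusted p = 7.45e-05). The 4 targets with the lowest slopes relative to their error were Acot4 (-0.13), Pex11a (-0.05), Fabp1 (-0.06) and Acot3 (0.00), with adjusted p from 0.606 to 0.996. The receptor itself, Ppara, had a slope of -0.12 (adjusted p = 0.538) and its partner Rxra of -0.06 (adjusted p = 0.44).

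The other lists were counted with Cyp4a14 in the same way. Of 22 partners in omega-oxidation and peroxisomes 5 rose, among them Adh7, an alcohol dehydrogenase (slope 0.43, adjusted p = 0.00611), and Pex19, needed to build peroxisomes (0.18, adjusted p = 0.0103). Of 15 lipid synthesis genes 3 rose, Elovl5 (0.72), Acacb (0.67) and Elovl6 (0.43), and 2 fell, among them Mlxipl (-0.43, adjusted p = 0.0199). Of 15 fasting genes Igfbp1 (1.08, adjusted p = 0.00223) and Got1 (0.48, adjusted p = 0.0252) rose. Other Cyp4 genes mostly went the other way, with 4 of 7 falling, Cyp4f14, Cyp4f15, Cyp4v3 and Cyp4f13, and Cyp4f16 rising (0.38, adjusted p = 0.0182). Male-biased genes fell in 11 of 19 and rose in 0, with a median slope of -0.58, as for C6 (-1.19, adjusted p = 0.000289) and Hsd3b5 (-1.91, adjusted p = 0.00041). Female-biased genes rose in 8 of 14 and fell in 0, as for Cyp17a1 (1.83, adjusted p = 7.8e-05). Acute phase genes rose in 1 of 16 (Serpina3n, adjusted p = 0.0498, and 0.0584 without the library numbered 24) and circadian genes in 0 of 14 (limma, with 4 at an unadjusted p under 0.05).

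Animal number was related to Cyp4a14 itself and to some of the listed genes. Along animal number 12 of the 19 male-biased genes fell and 5 of the 14 female-biased genes rose, while 6 of 34 PPAR-alpha targets rose. With library set and animal number as covariates the genes called with Cyp4a14 dropped from 1403 to 65, and the parts of set and animal number in this drop were not tested apart. PPAR-alpha targets then rose in 9 of 34 and fell in 0, with Ehhadh at a slope of 0.86 (adjusted p = 2e-05). Of the male-biased and female-biased genes 0 of 19 and 0 of 14 were called in limma. At an unadjusted p under 0.05 they were 7 of 19 and 8 of 14, beside 1161 of 10132 genes outside chromosomes 4 and 6. Cyp4f14 (adjusted p = 0.0811), Cyp4f15 (0.272), Cyp4v3 (0.346), Cyp4f13 (0.557) and Cyp4f16 (0.594) no longer passed with these covariates. Nor did Adh7 (0.0759), Pex19 (0.316), Acacb (0.0554), Elovl6 (0.354), Mlxipl (0.258), Got1 (0.567) and Serpina3n (0.848). Elovl5 (0.0409) and Igfbp1 (0.0463) still passed. With plain CPM values 1001 genes rose and 552 fell with Cyp4a14, and the PPAR-alpha targets stayed at 18 of 34.

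The genes most like Cyp4a14 over the 50 libraries were Ehhadh (r = 0.75, rho = 0.75), Igf2bp3, an RNA-binding protein gene best known from fetal tissue (0.74 and 0.70), Cidec (0.73 and 0.78), the carbonic anhydrase gene Car2 (0.72 and 0.72) and Bhlhb9 (0.72 and 0.71). The most opposite were Lrit2 (r = -0.77, rho = -0.79), the aldehyde oxidase gene Aox3 (-0.75 and -0.77) and 1700028E10Rik (-0.73 and -0.74). Every one of these r and rho values had a permutation p of 1e-05, the smallest possible, but the genes were picked as extremes of 11430, so these p-values describe the relation and do not test the choice. Within the sets r was 0.75 and 0.77 for Ehhadh and -0.80 and -0.78 for Lrit2.

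With Cyp4a10 fewer genes were called, 488 of 11435 (4.27%), 280 rising (2.45%) and 208 falling (1.82%). PPAR-alpha targets rose in 15 of 34 and fell in 0, with a median slope of 0.29, led by Ehhadh (0.81, standard error 0.13, adjusted p = 6.41e-05), Vnn1 (0.89), Cidec (1.93) and Acadl (0.33). Of the 22 partners 5 rose, among them Slc27a2, a fatty acid transporter and acyl-CoA synthetase of the peroxisome (0.29, adjusted p = 0.000584), and Por, the reductase that passes electrons to P450 enzymes (0.47, adjusted p = 0.0356). Acacb, which makes malonyl-CoA at mitochondria, rose (0.89, adjusted p = 7.41e-05), and so did Elovl5 (0.69, adjusted p = 0.0121). Male-biased genes fell in 1 of 19 and female-biased genes rose in 5 of 14. Circadian genes were called in 0 of 14 and other Cyp4 genes in 0 of 7 (limma, with 0 and 3 at an unadjusted p under 0.05). Most like Cyp4a10 were Agpat3 of glycerolipid synthesis (r = 0.76, rho = 0.75), Mttp, which loads lipid onto lipoproteins (0.68 and 0.67), Tmem135 (0.67 and 0.72), Rogdi (0.67 and 0.64) and Ehhadh (0.67 and 0.67), and most opposite Lrit2 (-0.73 and -0.72), Syt3 (-0.71 and -0.70) and 1700028E10Rik (-0.68 and -0.66), each with a permutation p of 1e-05 for r and rho.

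With set and animal number as covariates the count for Cyp4a10 dropped to 54, and PPAR-alpha targets rose in 7 of 34. Partners then rose in 1 of 22, and Por (adjusted p = 0.309) and Elovl5 (0.246) no longer passed (limma). Male-biased and female-biased genes were called in 0 of 19 and 0 of 14 (with 1 and 4 at an unadjusted p under 0.05). Outside chromosomes 4 and 6, 1030 of 10132 genes were at such a p. With plain CPM values 617 genes were called, 380 of them falling, with PPAR-alpha targets at 15 of 34 and male-biased genes falling in 5 of 19. The lists of genes that rose with Cyp4a14 and with Cyp4a10 shared 234 genes, 32.3% of the first and 84.2% of the second, members aside. Among all genes tested 6.35% rose with Cyp4a14 and 2.45% with Cyp4a10.

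Cyp4a31 was called with 143 of 11435 genes (1.25%), 57 rising (0.498%) and 86 falling (0.752%), and with 84 rising and 67 falling with plain CPM values. PPAR-alpha targets rose in 5 of 34 and fell in 0, among them Fads2, the delta-6 desaturase gene (0.23, standard error 0.05, adjusted p = 0.00512), Vnn1 (0.35, adjusted p = 0.0202), Acadl (0.13, adjusted p = 0.0253) and Ehhadh (0.30, adjusted p = 0.0275). Abcd2, a peroxisomal transporter, was the 1 of 22 partners that rose (0.41, adjusted p = 0.0324; without the library numbered 24 adjusted p = 0.0545). Female-biased genes rose in 3 of 14 (2 of 14 without that library), Trim24 (0.25), Fmo2 (0.44) and Abcd2. Male-biased genes were called in 0 of 19 (limma, with 5 at an unadjusted p under 0.05). The fasting, circadian, other Cyp4 and acute phase lists were each called in 0 genes (3 of 15, 3 of 14, 3 of 7 and 1 of 16 at an unadjusted p under 0.05). The gene most like Cyp4a31 was AU022252 of chromosome 4 (r = 0.67, rho = 0.60), followed by Gria3 (0.64 and 0.64), C1qtnf6 (0.62 and 0.58), Chp1 (0.62 and 0.60) and Elovl2, which elongates polyunsaturated fatty acids (0.59 and 0.57). The most opposite were Haao of tryptophan breakdown (-0.73 and -0.76), Tmem250-ps (-0.67 and -0.66) and Magix (-0.65 and -0.65), with a permutation p of r of 1e-05 in all 8 genes. With set and animal number as covariates 83 genes rose and 144 fell with Cyp4a31. Acadl (adjusted p = 0.0693) and Ehhadh (0.0674) then no longer passed in limma. Fads2 (0.00329), Vnn1 (0.0352), Abcd2 (0.0396), Trim24 (0.013) and Fmo2 (0.0352) still passed.

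Cyp4a12a moved with the sex-biased programme of the liver. It was called with 2156 of 11435 genes (18.9%), 1152 rising (10.1%) and 1004 falling (8.78%). Male-biased genes rose with it in 17 of 19 and fell in 0, with a median slope of 0.72 against -0.00025 for all genes. Cyp2d9, a male-specific steroid hydroxylase, had a slope of 0.65 (standard error 0.05, adjusted p = 2.14e-16), Cyp7b1, which hydroxylates oxysterols, of 1.40 (0.12, adjusted p = 2.18e-13), Elovl3, a fatty acid elongase, of 1.44 (0.13, adjusted p = 1.22e-12) and the major urinary protein gene Mup7 of 2.34 (0.22, adjusted p = 4.42e-12). The 2 listed genes that did not pass were Cyp2u1 (0.04, adjusted p = 0.607) and Bcl6 (0.46, adjusted p = 0.0735). Female-biased genes fell in 9 of 14 and rose in 0, with a median slope of -0.39, as for Cyp2a4 (-1.73, standard error 0.16, adjusted p = 4.16e-12) and Cyp2b9 (-1.97, 0.23, adjusted p = 3.36e-09). Cyp2c40, Cyp2c69, Cyp3a44 and Cyp2b10 had slopes of 0.09, 0.10, -0.03 and -0.30, with adjusted p from 0.371 to 0.765. The male- and female-biased lists were written from general knowledge of mouse liver, at a time when earlier results of these data were known.

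These counts did not rest on the library numbered 24 alone. Without it 14.5% of all genes were called, male-biased genes rose in 17 of 19 (median slope 0.68) and female-biased genes fell in 6 of 14 (median slope -0.43). With set and animal number as covariates they were 17 of 19 and 8 of 14, and the genes called in all dropped to 1324. With plain CPM values the split of all genes turned to 482 rising and 2306 falling, with a median slope of -0.041, and the lists were 17 of 19 rising and 10 of 14 falling. The shares of all genes rising and falling with Cyp4a12a thus depend on the normalisation.

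Other lists were mixed for Cyp4a12a. PPAR-alpha targets fell in 9 of 34, among them the fatty acid transporter Cd36 (-0.43, adjusted p = 4e-07), Acot2 (-0.32), the hepatokine gene Fgf21 (-0.53) and Pdk4 (-0.36), and rose in 2, Pex11a, which divides peroxisomes (0.24, adjusted p = 1.16e-05), and Retsat (0.13, adjusted p = 0.0224). Without the library numbered 24 the falling count was 5 of 34. Of the 22 partners 4 rose, Aldh1a1 (0.38), Nudt7 (0.35), Acsl1 (0.14) and Scp2 (0.06), and 3 fell, Abcd2 (-0.47), Acot6 (-0.29) and Nudt19 (-0.09), and without that library the counts were 2 and 2. Lipid synthesis genes fell in 2 of 15, Fads1 (-0.21) and Elovl5 (-0.33), and rose in 1, Me1 (0.15). Fasting genes rose in 2 and fell in 3 of 15, against 0 and 2 without that library, and with set and animal number as covariates 0 of 15 were called (limma, with 7 at an unadjusted p under 0.05). Circadian genes rose in 5 of 14, among them Hlf (0.17, adjusted p = 0.00021), Nr1d2 (0.26) and Tef (0.28), and Npas2 fell (-0.59, adjusted p = 0.000575). Without that library the counts were again 5 and 1, although Per2 (adjusted p = 0.0185 with it) no longer passed (0.16). Of the 7 other Cyp4 genes Cyp4v3 (0.29) and Cyp4f13 (0.14) rose and Cyp4f16 (-0.24) and Cyp4b1 (-0.15) fell. Of 16 acute phase genes 2 rose, Orm1 (0.34, adjusted p = 2.14e-05) and Saa1 (0.50, adjusted p = 0.044), and 4 fell, Fgg (-0.12), Fgb (-0.10), Lcn2 (-0.47) and Hp (-0.12), against 1 and 3 without that library, where Saa1 (adjusted p = 0.0625) and Fgb (0.0542) did not pass. Ppara had a slope of 0.14 (adjusted p = 0.0602), and 0.20 (adjusted p = 0.0262) without the library numbered 24.

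Cyp4a12b gave a similar picture for the sex-biased lists, with 2068 of 11435 genes called (18.1%), 1092 rising (9.55%) and 976 falling (8.54%). Male-biased genes rose in 17 of 19 with a median slope of 0.64, and female-biased genes fell in 10 of 14 with a median of -0.36. PPAR-alpha targets fell in 10 of 34, with Cd36 at -0.38 (adjusted p = 7.4e-06), and rose in 1, Pex11a (0.23, adjusted p = 1.2e-05). Circadian genes rose in 4 and fell in 1 of 14, other Cyp4 genes rose in 3 and fell in 2 of 7, partners rose in 4 and fell in 2 of 22, and lipid synthesis genes fell in 2 of 15. Of the acute phase genes Orm1 (0.35), Saa1 (0.67) and Saa2 (0.55) rose and Fgg fell (-0.08), and without the library numbered 24 4 of 16 rose and 0 fell. Fasting genes rose in 2 and fell in 0 of 15, and without that library in 1 and 0. With that library left out, 12.8% of all genes were called, male-biased genes rose in 17 of 19, female-biased genes fell in 9 of 14, PPAR-alpha targets fell in 6 of 34, and circadian genes rose in 2 and fell in 0 of 14. Partners then rose in 2 and fell in 1 of 22 and other Cyp4 genes rose in 2 and fell in 2 of 7, where Acsl1, Scp2, Acot6, Cyp4f14 and Npas2 no longer passed (adjusted p = 0.0583, 0.176, 0.112, 0.151 and 0.054). With set and animal number as covariates 1192 genes were called in all. With plain CPM values 3114 were called, 394 rising and 2720 falling, and PPAR-alpha targets fell in 18 of 34.

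Lists for Cyp4a12a and Cyp4a12b overlapped in 968 rising genes, 84.1% of the first and 88.7% of the second, members aside. Among all genes tested 10.1% rose with Cyp4a12a and 9.55% with Cyp4a12b. The genes most like Cyp4a12a were Cyp2d9 (r = 0.90, rho = 0.84), the urinary protein genes Mup8 (0.88 and 0.85), Mup14 (0.87 and 0.83) and Mup1 (0.86 and 0.85), and Cyp7b1 (0.85 and 0.87). Among the most opposite were Cyp2a4 (-0.83 and -0.80) and the transporter gene Slc22a26 (-0.81 and -0.77). Most like Cyp4a12b were Cyp7b1 (0.87 and 0.90), Elovl3 (0.86 and 0.84), Cyp2d9 (0.85 and 0.83), C6 of the complement cascade (0.84 and 0.85) and Mup1 (0.84 and 0.85), with Cyp2a4 (-0.84 and -0.82) and Slc22a26 (-0.83 and -0.79) among the most opposite. Permutation p was 1e-05 for r and rho of each. Without the 2 libraries farthest from the median of Cyp4a12a r was 0.83 for Cyp2d9 and -0.80 for Cyp2a4, and within the sets it was 0.92 and 0.86 for Cyp2d9 and -0.83 and -0.83 for Cyp2a4.

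Cyp4a14 and Cyp4a12a were called with many of the same genes in opposite directions, the only pair across the blocks for which this was counted. Of the genes that rose with Cyp4a14, members aside, 317 fell with Cyp4a12a, 43.8% of the first list and 31.6% of the second, and 0 rose with it. Of those that fell with Cyp4a14, 309 rose with Cyp4a12a, 45.6% and 26.8% of the lists, and 0 fell with it. Among all genes tested 10.1% rose and 8.78% fell with Cyp4a12a, and 6.35% rose and 5.92% fell with Cyp4a14. Both fits use the same libraries, in which Cyp4a14 and Cyp4a12a themselves had r = -0.30, so these overlaps are a description.

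**Figure D4:**
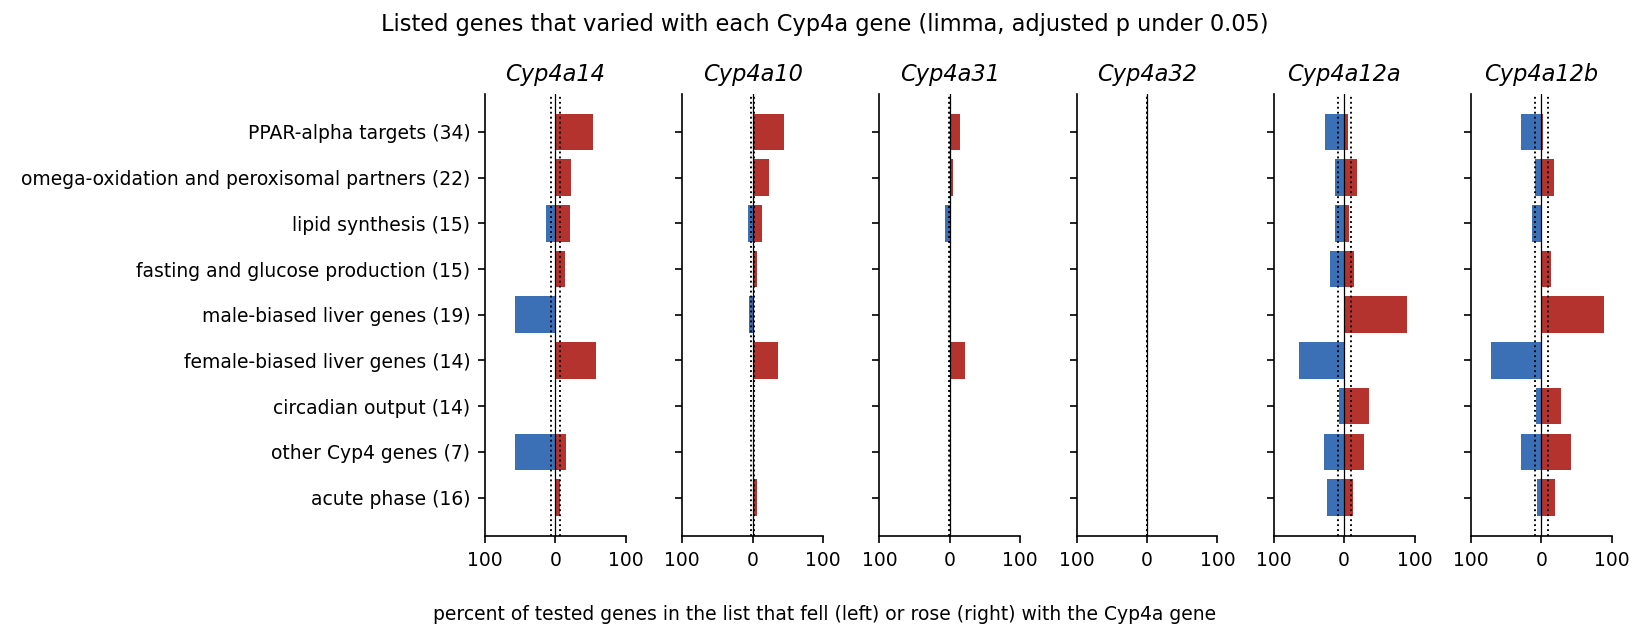
Percent of the tested genes of each list (number in brackets) that fell (left) or rose (right) with each Cyp4a gene, with dotted lines at the percent of all genes called in that direction. PPAR-alpha targets rise with Cyp4a14 (18 of 34) and Cyp4a10 (15 of 34), male-biased genes rise with Cyp4a12a and Cyp4a12b (17 of 19 each), and no listed gene passes with Cyp4a32.

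Cyp4a32 was called with few genes, 49 of 11435 (0.429%), 25 rising (0.219%) and 24 falling (0.21%). None of the lists held a called gene (limma), with 17 of 34 PPAR-alpha targets and 7 of 22 partners at an unadjusted p under 0.05. Without the library numbered 24, 1 of 34 PPAR-alpha targets rose, the fatty acid transporter gene Slc27a1 (0.13, adjusted p = 0.0448, and 0.0507 with that library), and 1 of 19 male-biased genes fell, Mup20 (-0.35, adjusted p = 0.0103, and 0.05 with that library). No library lay between the ranges, so these slopes mainly follow the step from one range to the other. With the range as a term, an alternative chosen after the values were seen, the slope reads variation inside the ranges and 200 genes were called (1.75%). PPAR-alpha targets then rose in 10 of 34 and fell in 0, partners rose in 2 of 22, and lipid synthesis genes rose in 2 and fell in 1 of 15. The part of sequence shared with Cyp4a10 in these counts was not tested. Without the libraries that share an animal number 111 genes were called with Cyp4a32, and with plain CPM values 16 rose and 50 fell. Among the genes nearest to Cyp4a32 in pattern were Gm15501 of chromosome 7 (slope 0.74, standard error 0.03, adjusted p = 1.3e-23) and the pseudogene Nudc-ps1 of chromosome 8 (1.10, 0.10, adjusted p = 6.63e-12). On chromosome 4 itself these were Extl1, a heparan sulfate glycosyltransferase gene (0.71, 0.07, adjusted p = 3.77e-11), Ttc39a (0.50, adjusted p = 8.05e-09) and the acyl-CoA thioesterase gene Acot11 (0.34, adjusted p = 9.32e-06). The most opposite were Enpp6 of chromosome 8 (-0.42, adjusted p = 1.97e-11) and, on chromosome 4, AU022252 (-0.13, adjusted p = 1.98e-10) and Ube2u (-0.19, adjusted p = 0.000134). With the range as a term none of these 8 genes passed, with adjusted p from 0.194 for AU022252 to 0.923 for Enpp6.

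The genes called with Cyp4a32 were counted by their position in the genome. On chromosome 4, which segregates in the cross, 3 of 61 genes within 5 Mb of the cluster were called with Cyp4a32 (4.92%) and 24 of the other 662 (3.63%). On chromosome 6, the other segregating chromosome, 0 of 575 were called (limma, with 67 at an unadjusted p under 0.05), and on the remaining chromosomes 22 of 10132 (0.217%). With the range as a term the shares were 0 of 61, 7 of 662 (1.06%), 10 of 575 (1.74%) and 180 of 10132 (1.78%). No test of position was made. Called genes on chromosome 4 reached from -105 to 22.6 Mb from Cyp4a32, among them Alad of haem synthesis at -53.1 Mb (slope 0.18, adjusted p = 0.00039) and the alkaline phosphatase gene Alpl at 22.1 Mb (0.13, adjusted p = 0.0005). Alad and Alpl were chosen after their values were seen. For Cyp4a14 the shares were 15 of 61 near the cluster (24.6%), 66 of 662 (9.97%), 61 of 575 (10.6%) and 1259 of 10132 (12.4%), and with set and animal number as covariates 0, 3, 2 and 58 genes (10 of the 61 at an unadjusted p under 0.05). For Cyp4a12a they were 24.6% of 61, 20.1% of 662, 23.3% of 575 and 18.5% of 10132 genes, and with set and animal number as covariates 13.1%, 13.6%, 13% and 11.4%.

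**Figure D5:**
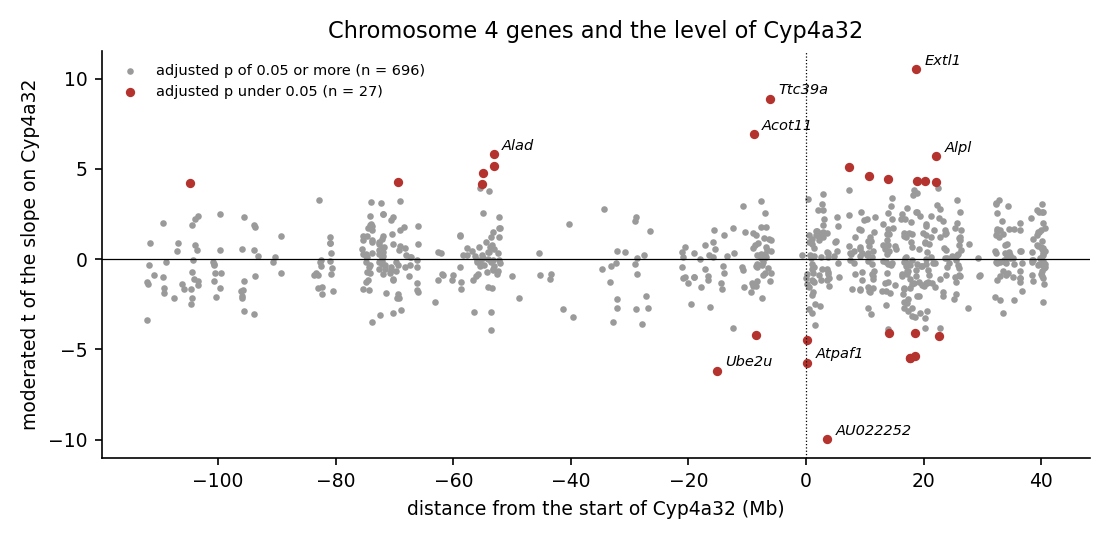
Moderated t of the slope on Cyp4a32 for 723 genes of chromosome 4 against their distance in Mb from the start of Cyp4a32, with genes at an adjusted p under 0.05 in red. Called genes lie on both sides of the gene, and Extl1, Ttc39a and AU022252 stand highest and lowest.

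The genes around the cluster that are described here are not all of the nearest ones, and they did not follow the Cyp4a genes as a body. Of the nearer genes left out, Mob3c, 0.227 Mb from the start of Cyp4a32, fell with Cyp4a32 (slope -0.11, adjusted p = 0.0172 in limma). Cyp4b1, a P450 gene of another subfamily, begins 3.12 kb beyond Cyp4a32 and had slopes of 0.07 with Cyp4a14 (adjusted p = 0.616) and -0.02 with Cyp4a32 (adjusted p = 0.659), but fell with Cyp4a12a (-0.15, standard error 0.03, adjusted p = 0.00156) and Cyp4a12b (-0.14, 0.03, adjusted p = 0.00148). Efcab14, 116 kb beyond, had adjusted p from 0.259 to 0.978 with the 6 genes, and Cmpk1, 312 kb before, from 0.146 to 0.947. Atpaf1, an assembly factor of ATP synthase 163 kb beyond, rose with Cyp4a14 (0.34, adjusted p = 0.0068) and Cyp4a31 (0.21, adjusted p = 0.0304) and fell with Cyp4a32 (-0.12, adjusted p = 0.0005), Cyp4a12a (-0.15, adjusted p = 0.0127) and Cyp4a12b (-0.16, adjusted p = 0.00567). Pdzk1ip1, at 0.578 ± 0.24, and Spata6, at 0.934 ± 0.285 (SD, n = 50), were below the mean value of 1 set for the tests.

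The tissue label was checked with markers of liver cells. All 6 hepatocyte markers were present, with a summed value of 79833 to 126336 over libraries and a median of 100682, and Alb as the most abundant at 76224 ± 10593 (SD, n = 50). Markers of Kupffer cells (5 of 5, summed up to 412), endothelium (5 of 5, 147 to 225), stellate cells (5 of 5, 62.1 to 146) and bile duct (4 of 5, 17 to 41.8, without Krt7) were low. The 4 adipocyte, 5 kidney tubule and 4 pancreas markers were absent from the table, from which the authors had removed genes with low counts. In bulk tissue, fewer cells of a type and less RNA per cell cannot be told apart.

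Some of these markers moved with the Cyp4a genes. With Cyp4a14 the hepatocyte genes Alb (slope 0.32, adjusted p = 0.00336) and Apoa1 (0.27, adjusted p = 0.0151) and the stellate gene Dcn (0.32, adjusted p = 0.0346) rose, and 0 of 5 Kupffer, 0 of 5 endothelial and 0 of 4 bile duct genes were called (limma, with 0, 1 and 0 at an unadjusted p under 0.05). With Cyp4a12a Cyp2e1 rose (0.25, adjusted p = 1.17e-05) and Alb (-0.15, adjusted p = 0.00367), the stellate genes Des (-0.22) and Dcn (-0.17) and the endothelial gene Lyve1 (-0.20, adjusted p = 0.0449) fell. Of the 3 red cell genes, with a summed median of 152 and a lowest of 89.2, Hbb-bs (0.90, adjusted p = 0.00041) and Hba-a1 (0.95, adjusted p = 0.000551) rose with Cyp4a14, and Alas2, which is also on the male-biased list, fell (-0.47, adjusted p = 0.00041). With Cyp4a12a the directions were reversed, at -0.35 for Hbb-bs and Hba-a1 and 0.28 for Alas2. Cyp4a12b was similar, at -0.35 for Hbb-bs, -0.34 for Hba-a1 and 0.30 for Alas2. Cyp2e1 also rose with Cyp4a12b (0.22, adjusted p = 8.12e-05). Alb (-0.14, adjusted p = 0.00658), Dcn (-0.18, adjusted p = 0.00818) and Des (-0.20, adjusted p = 0.00577) fell with it. With Cyp4a10 Apoa1 (0.42, adjusted p = 0.00101), Alb (0.33, adjusted p = 0.0334), Hbb-bs (0.94, adjusted p = 0.00764) and Hba-a1 (1.00, adjusted p = 0.00884) rose, and with Cyp4a31 Hbb-bs (0.49, adjusted p = 0.0117) and Hba-a1 (0.47, adjusted p = 0.031). With library set and animal number as covariates fewer of these calls held (limma). With Cyp4a10 Apoa1 passed (adjusted p = 0.0282), whereas Alb (0.69), Hbb-bs (0.412) and Hba-a1 (0.53) did not. With Cyp4a31 Hbb-bs passed (0.0405) and Hba-a1 did not (0.0843). With Cyp4a12a Dcn (0.155), Lyve1 (0.134), Hbb-bs (0.0743) and Hba-a1 (0.0749) did not pass, whereas Cyp2e1, Alb, Des and Alas2 passed. With Cyp4a12b and these covariates Hbb-bs (0.0738), Hba-a1 (0.0723), Dcn (0.0939) and Des (0.0611) did not pass, whereas Alb, Cyp2e1 and Alas2 passed. With Cyp4a14 none of the markers named here then passed. Adjusted p was 0.429 for Alb, 0.406 for Apoa1, 0.896 for Dcn, 0.254 for Hbb-bs, 0.27 for Hba-a1 and 0.175 for Alas2. The part of cell composition or of blood in the tissue in these relations was not tested.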

How the data were processed

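Upstream, the authors used HISAT2 on trimmed reads against GRCm38.p5, HTSeq 0.11.1 for gene counts, and edgeR to drop low counts and to normalise. The deposited values are a normalised expression signal, from which whole reads were recovered for 100% of values within 0.01 of a read. Tests used limma 3.58.1 in R 4.3.3 with a mean-variance trend on log2(value + 0.5), over genes with a mean of at least 1, adjusted by Benjamini and Hochberg, at 0.05. Each member was left out of its own fit. Correlations are on the same scale, with 100000 permutations. The depth was 11965594 to 29976557 reads per library.

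Positions and transcripts came from GENCODE M21. Named genes are the members, the 5 most like and 3 most opposite genes of each member, up to 4 genes at either end of each list, and the markers. Alternatives changed the pseudocount, the filter, the normalisation, the test (edgeR 4.0.16, DESeq2 1.42.0), the covariates and the libraries. The fits were first tested on simulated data. Members and lists were chosen with earlier results of these data known. Genotypes were not used.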

Additional observations from a re-analysis of the deposited data

How the results depend on the processing

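All results for single members by library set or animal number kept their direction and their side of the threshold under the alternatives, as did 110 of 120 correlations. The relation of Cyp4a14 to Cyp4a12b and of Cyp4a32 to Cyp4a14 in the upper range lost the threshold once set and animal number were fitted, and that of Cyp4a14 to Cyp4a12a passed it with plain CPM values and without the library numbered 24. Near-zero correlations changed sign: after set and animal number were fitted, Cyp4a10 had 0.12 with Cyp4a12a and 0.13 with Cyp4a12b, and Cyp4a32 in its lower range 0.08 and 0.14. Without the library numbered 24 the last were 0.08 and 0.09. With set and animal number as covariates the share of genes called went from 12.3% to 0.568% for Cyp4a14, from 4.27% to 0.472% for Cyp4a10, from 1.25% to 1.99% for Cyp4a31, from 18.9% to 11.6% for Cyp4a12a and from 18.1% to 10.4% for Cyp4a12b. With plain CPM values it was 27.2% for Cyp4a12b. With counted reads as a covariate 898 genes differed between the library sets in place of 1575. For Cyp4a32 it went from 0.429% to 0.971% without the libraries that share an animal number, and to 1.75% with its range as a term, an alternative chosen after seeing the data like the pairs within ranges, where the chromosome 4 genes called went from 27 to 7. Per kb of own sequence Cyp4a12a was at 73.5 and Cyp4a12b at 43.1, which follows from the shorter length. For the other changes the cause was not tested. Of 476 list counts 350 stayed within 1.5 times. Depth did not limit the members, which had 102 reads or more in every library.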
